A study of Sus scrofa with 14 samples.

Results

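The pESCLC-FLB2i line, a porcine embryonic stem cell-like cell line derived from blastocysts, was compared with the primary outgrowths that such lines start from. The comparison used 4 of the 14 RNA-seq samples of the series. A gene was a member if it had at least 10 normalized counts, which are read counts divided by 1 size factor per sample, in at least 2 of these 4 samples. Of the 19588 genes in the table, 14682 were members and 4906 were not. Among the members, 12361 had at least 10 normalized counts in all 4 samples, 684 passed through pESCLC-FLB2i alone and 567 through pESCLC-primary alone. Gene symbols were known for 12168 members.

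The pESCLC-primary group held 2 outgrowths of pig blastocysts, labelled as inner cell mass, plated on irradiated mouse embryonic fibroblasts in F, a serum-containing medium with FGF2. Line B1 alone gave both pESCLC-FLB2i samples, taken at its passages 3 and 6. Their cells were kept in F at first, moved into FL6i at culture day 8 and from FL6i into FLB2i at culture day 18. The study plated both intact blastocysts and isolated inner cell mass, and which of these gave the sequenced outgrowths is not given in the sources used here. FLB2i holds LIF, FGF2 and BMP4 with inhibitors of GSK3 and of TGFB receptors. FL6i holds FGF2 and LIF with inhibitors of p38, JNK, TGFB receptors, GSK3, MEK and BMP receptors. The pESCLC-FL6i samples (line C2, passages 3 and 9) and the pESCLC-F samples (lines A1 and A2, both at passage 2) served as further references, also on mouse feeders. Since pESCLC-FLB2i is 1 line, its spread is a spread between passages, and medium, passage, time in culture and line cannot be told apart. Nothing in the labels says that the outgrowths came from separate animals, so p-values measure only the spread between these samples.

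In the blastocyst, the inner cell mass separates into the epiblast, which forms the embryo proper, and the primitive endoderm, which lines the yolk sac, while the trophectoderm forms the outer wall. Pluripotent epiblast cells are held by transcription factors such as POU5F1, SOX2 and NANOG. In the pig they depend on FGF2 and activin or nodal signals, and loss of those signals lets epiblast cells turn towards neural tissue or, with BMP, towards other fates. LIF acts through STAT3, BMP through SMAD1, SMAD5 and SMAD9, and inhibition of GSK3 stabilises beta-catenin, the transducer of WNT.

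The 4 libraries held between 16493637 and 21232806 reads on genes. Over the members, the 2 outgrowths correlated at r = 0.973 and the 2 passages at r = 0.926 (Pearson's r of log2 values across genes, which are not independent replicates). Samples of different groups correlated at 0.669 to 0.714. The second pESCLC-FL6i sample, with 6193659 reads, was the shallowest of the series and stood apart from the first in fibroblast genes. Among the marker lists of other cell types, endothelial genes summed to 1069 and 524 normalized counts in the outgrowths and 459 and 294 in the line. Blood and immune genes summed to 126 and 131 in the outgrowths and 239 and 235 in the line. In bulk samples, fewer cells of a type and less RNA per cell cannot be told apart.

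Between pESCLC-FLB2i and pESCLC-primary, 4186 of 14682 members (28.5%) passed the test, which was limma on log2(normalized count + 1) with an adjusted p of at most 0.05. Of these, 2212 (15.1%) rose in the line and 1974 (13.4%) fell. All log2 fold changes are on this scale, which understates the change of low genes. Where a group held only a few reads, the fitted fold depends on the 1 added and is no bound. When a log2 difference of 3 or more in either direction was also required, 1681 genes (11.4%) were differentially expressed genes (DEGs), 878 (5.98%) higher and 803 (5.47%) lower in the line. Both samples of the line lay above both outgrowths in 5168 members (35.2%) and below both in 5303 (36.1%). The calls rest on having both outgrowths. Without outgrowth 1 the test called 138 genes and without outgrowth 2 it called 113, against 4962 without passage 3 and 4104 without passage 6. With 1 outgrowth left, the spread comes from the pair of passages alone.

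**Figure D1:**
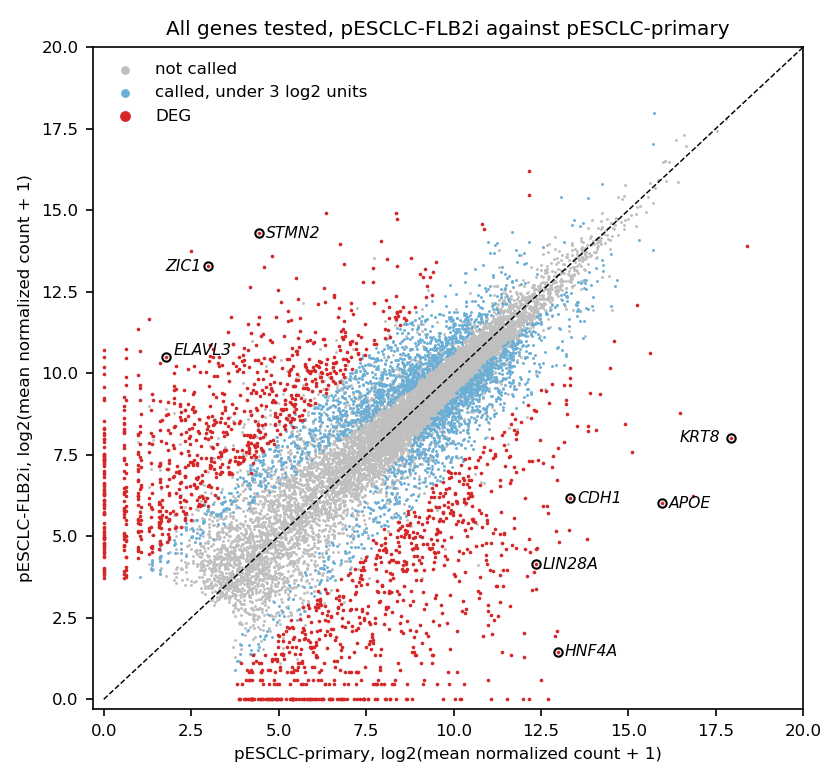
Mean normalized counts of each gene tested in the 2 pESCLC-primary samples (x axis) and the 2 pESCLC-FLB2i samples (y axis), both as log2(mean + 1). Red points are the 1681 DEGs, blue points other genes called by limma, and the dashed line marks equal means. STMN2 and ZIC1 lie far above the line, HNF4A, APOE and KRT8 far below it.

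Among the 12 symbol-bearing DEGs with the largest rise were ZIC4, ZIC1, LRP11, SCG2, STMN2, P2RX3, VSTM2L, PCSK2, GRIA2, ADCYAP1 and FGFBP3, most of them known from neural cells. ZIC4 and ZIC1 encode zinc finger factors of the dorsal neural tube and are neighbours on chromosome 13 (chr13:87725642-87740724 and chr13:87740769-87750258, Sscrofa11.1). ZIC1 stood at 12.8 and 1.09 normalized counts in the outgrowths and 8620.2 and 11192 in the line (log2 fold change 10.84, SE 0.93, adjusted p = 0.00447). ZIC4 stood at 4.92 and 4.37 and rose to 8678 and 18695 (log2 fold change 11.14, SE 0.44, adjusted p = 0.00196). Secretogranin II (SCG2) and the prohormone convertase PCSK2 work in secretory granules of neurons and endocrine cells. GRIA2 is a subunit of glutamate receptors. SCG2 had no read in either outgrowth and 360.1 and 2983 normalized counts in the line, at least 537-fold higher against a floor of 3 reads per library. Its passages lay far apart, with passage 6 the higher.

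The 12 DEGs with the largest fall were SLC28A3, EOMES, OTX2, HNF4A, VRTN, GATA4, CER1, KRT18, NODAL, CYP26A1, SLC3A1 and SLC13A5. They hold regulators of the epiblast and its nodal signal (OTX2, EOMES, NODAL, CER1), of endoderm (HNF4A, GATA4), a keratin of simple epithelia and 3 genes of solute transport. The nucleoside transporter SLC28A3 had 3613 and 9646 normalized counts in the outgrowths and none in the line, at least 2519-fold lower. VRTN, a gene linked to vertebral number in pigs, had 2290.0 and 3601 in the outgrowths and none in the line, at least 1119-fold lower. The genes in both directions were taken from DEGs whose samples did not overlap between the groups, so that separation was fixed by the choice.

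The name of the line as embryonic stem cell-like was checked against the markers of epiblast and pluripotent cells that could be matched. Of the 8 markers, POU5F1, SOX2, SALL4, DPPA4 and TDGF1 had no matched symbol and were not analysed here. PRDM14 was at or near 0 in all 4 samples and was no member. NANOG, a core pluripotency factor, had 287 and 178 normalized counts in the outgrowths and 24.6 and 20.7 in the line (log2 fold change -3.27, SE 0.44, adjusted p = 0.00989). LIN28A, an RNA-binding protein of pluripotent cells, had 5185 and 5313 in the outgrowths and 32.3 and 0.985 in the line (log2 fold change -9.33, SE 1.35, adjusted p = 0.0116). The 3 markers with a symbol summed to 5473 and 5492 normalized counts in the outgrowths and to 57 and 22 in the line. For both genes the line was far below the outgrowths at both passages, so the RNA of these markers goes against the label. The study reports that staining for POU5F1, NANOG, SOX2 and alkaline phosphatase persisted in FLB2i. It also reports lower POU5F1 and NANOG RNA there, but not lower SOX2. The cells are called the FLB2i line here.

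Gene lists were counted over the members they hold, and a list member without a matched symbol or under the filter was not tested. The epithelial, endoderm and neural lists held 37 genes each, the mesoderm list 34 and the trophectoderm list 30. Some members passed the filter through 1 group alone, 9 for endoderm, 8 for trophectoderm, 10 for mesoderm, 8 for neural and 2 for epithelial genes, and had to differ. There were 7 such members among FGF ligands and receptors, 5 each among BMP targets, nodal and TGFB targets and WNT ligands, and at most 4 in any other list. Without either outgrowth, no list had more than 4 members called in 1 direction. The counts are therefore descriptions, to be read against the 15.1% and 13.4% of all members that rose and fell.

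Of the 11 measured genes of core and general pluripotency, 6 fell, 1 rose and 4 did not pass the test (median log2 fold change -3.27, against -0.02 over all genes tested). DEGs were 5 of those that fell and the 1 that rose, whose values are not reported here. EPCAM, an adhesion molecule of epithelia and pluripotent cells, fell from 6158 and 7098 normalized counts to 93.1 and 9.85 (log2 fold change -7.69, SE 1.03, adjusted p = 0.01). TRIM71, which works with LIN28 proteins on stem cell RNAs, fell from 604 and 608 to 50.8 and 1.97 (log2 fold change -5.61, SE 1.39, adjusted p = 0.0424). MYCN, with 1588 and 1833 in the outgrowths and 870.2 and 257 in the line, and MYC, with 171 and 144 in the outgrowths and 171 and 666 in the line, did not pass the test. Neither did alkaline phosphatase (ALPL), with 3474 and 3751 in the outgrowths and 580.1 and 45.3 in the line (adjusted p = 0.0516). With edgeR in place of limma 4 members fell, and without passage 3, 2 rose.

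**Figure D2:**
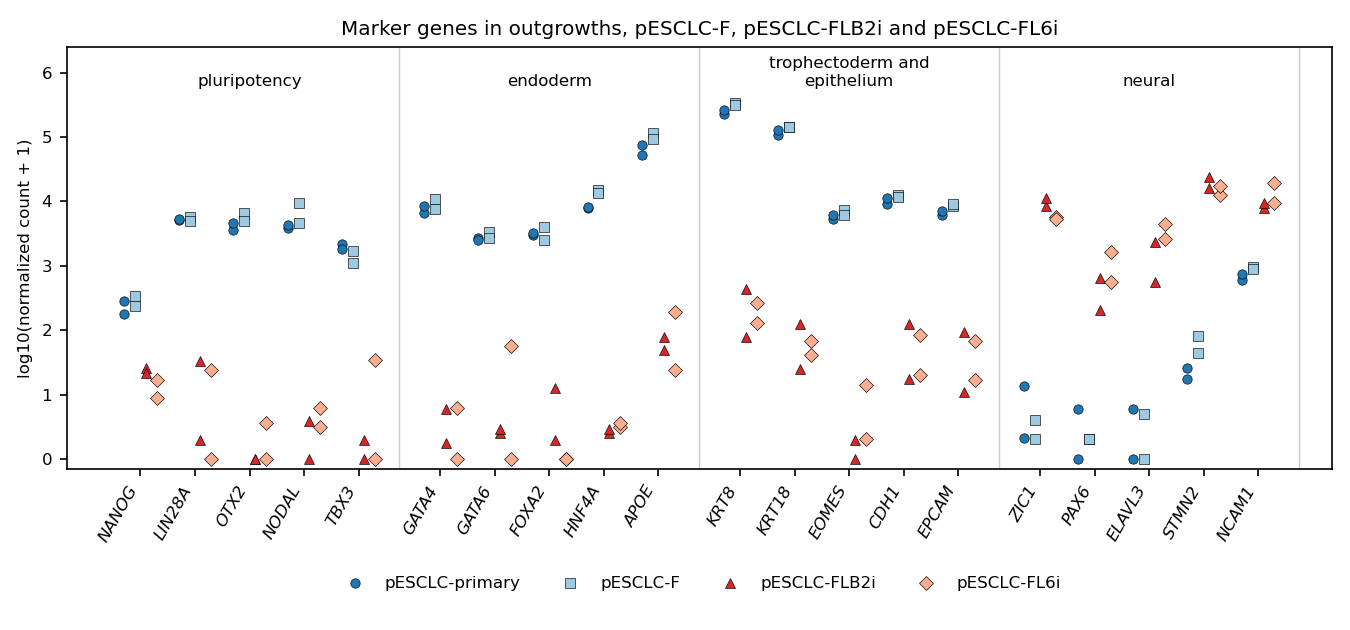
Normalized counts of 20 marker genes in each sample, as log10(normalized count + 1), with 2 points per group for pESCLC-primary, pESCLC-F, pESCLC-FLB2i and pESCLC-FL6i. Outgrowths and pESCLC-F lie high for pluripotency, endoderm and epithelial genes. Both passages of pESCLC-FLB2i lie below both outgrowths for them, many near the bottom, and high for the neural genes.

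Of the 9 measured naive-type genes, 4 fell and 1 rose. Of those that fell, 3 (TBX3, TFAP2C and NR5A2) passed the filter through the outgrowths alone and had to differ. TBX3, a T-box factor of naive cells and of BMP responses, fell from 2174 and 1844 normalized counts to 0 and 0.985 (log2 fold change -10.47, SE 0.51, adjusted p = 0.00256). TFAP2C, shared by naive cells, trophectoderm and germ cells, fell from 193 and 142 to 7.69 and 3.94 (log2 fold change -4.67, SE 0.52, adjusted p = 0.00685). SUSD2, a surface marker of naive human cells, fell from 1625 and 2603 to 5.39 and 23.6 (log2 fold change -7.36, SE 0.73, adjusted p = 0.00559). NR5A2, a nuclear receptor that can drive POU5F1, had 88.5 and 38.3 in the outgrowths and no read in the line, at least 24.1-fold lower. STAT3, the transducer of LIF, was the member that rose. KLF4, with 30.5 and 6.56 in the outgrowths and 15.4 and 34.5 in the line, ESRRB, with 43.3 and 39.3 in the outgrowths and 27.7 and 47.3 in the line, and KLF5, with 319.7 and 416 in the outgrowths and 58.5 and 294 in the line, did not pass the test.

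Of the 17 measured primed-type genes, 4 rose and 4 fell. OTX2, a factor of the primed epiblast and the anterior brain, had 3565 and 4568 normalized counts in the outgrowths and none in the line, at least 1545-fold lower. LEFTY2, a nodal antagonist that nodal itself induces, fell from 2404 and 2382 to 5.39 and 14.8 (log2 fold change -7.90, SE 0.52, adjusted p = 0.00327). Members that rose included VIM, SFRP2 and POU3F1. VIM, the intermediate filament vimentin, rose from 4892 and 4252 to 45429 and 106261 (log2 fold change 3.93, SE 0.44, adjusted p = 0.00695). POU3F1, a POU factor of the epiblast and neural cells, had no read in the outgrowths and 215 and 24.6 in the line, at least 38.5-fold higher. ZIC2, with 4105 and 5513 in the outgrowths and 4257 and 8424 in the line, and the de novo methyltransferase DNMT3B, with 1776 and 2427 in the outgrowths and 1407 and 689.7 in the line, did not pass the test.

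Genes of the primitive and visceral endoderm fell as a group. Of 31 measured members, 20 fell, 1 rose and 10 did not pass the test (median log2 fold change -3.92, against -0.02 over all genes tested). HNF4A, a nuclear receptor of visceral endoderm and liver, had 7811 and 8335 normalized counts in the outgrowths and 1.54 and 1.97 in the line (log2 fold change -11.52, SE 0.31, adjusted p = 0.00192). GATA4 had 6692 and 8623 in the outgrowths and 0.769 and 4.93 in the line (log2 fold change -11.20, SE 0.65, adjusted p = 0.00303), and GATA6 had 2740.5 and 2561 in the outgrowths and 1.54 and 1.97 in the line (log2 fold change -9.91, SE 0.36, adjusted p = 0.00196). These GATA factors specify primitive endoderm. All 3 genes passed the filter through the outgrowths alone, so both passages had to lie below both outgrowths.

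FOXA2, a pioneer factor of endoderm, fell from 3029.7 and 3287 normalized counts to 11.5 and 0.985 (log2 fold change -9.31, SE 0.92, adjusted p = 0.00553). The apolipoproteins that visceral endoderm secretes fell with these factors. APOA1 stood at 68583 and 111894 in the outgrowths and 225 and 644 in the line (log2 fold change -7.84, SE 0.56, adjusted p = 0.00331), and APOE at 52416 and 75057 in the outgrowths and 47.7 and 78.8 in the line (log2 fold change -9.97, SE 0.32, adjusted p = 0.00196). CER1, an antagonist of nodal, BMP and WNT made by anterior visceral endoderm, had 2481 and 1855 in the outgrowths and no read in the line, at least 824-fold lower. PDGFRA, a receptor of primitive endoderm and of mesenchyme, had 1548 and 1201 in the outgrowths and 105 and 662 in the line and did not pass the test (adjusted p = 0.112). RSPO3, a WNT agonist, was the member that rose, and without either passage 2 rose. The 5 matched primitive endoderm markers summed to 21822 and 24007 normalized counts in the outgrowths and 120 and 672 in the line.

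Of 21 measured trophectoderm genes, 16 fell and 1 rose (median log2 fold change -4.67, or -4.06 with members at 0 in 1 group set to their bound). The keratins of simple epithelia fell as well. KRT8 fell from 230905 and 265084 normalized counts to 442 and 77.8 (log2 fold change -10.37, SE 0.83, adjusted p = 0.00389) and KRT18 from 106335 and 129060.0 to 125 and 23.6 (log2 fold change -11.04, SE 0.79, adjusted p = 0.00331). EOMES, a T-box factor of trophectoderm, epiblast and early mesoderm, had 5381 and 6221 in the outgrowths and 0 and 0.985 in the line (log2 fold change -12.00, SE 0.48, adjusted p = 0.00196). The line held 1 read of it in all, which put the ratio of the means at 11774-fold lower, with a counting interval of 2373 to 522269.

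GATA3, a trophectoderm factor, fell from 1858 and 1683 normalized counts to 80.8 and 165 (log2 fold change -3.93, SE 0.39, adjusted p = 0.00553), and GATA2 fell from 86.6 and 33.9 to 5.39 and 0.985 (log2 fold change -3.96, SE 0.84, adjusted p = 0.0297). CDX2, which sets up the trophectoderm, had 388 and 26.2 in the outgrowths and 0.769 and 0 in the line (log2 fold change -6.27, SE 1.36, adjusted p = 0.031). HAND1, a factor of trophoblast and heart, had 307 and 41.5 in the outgrowths and none in the line, at least 66.2-fold lower. In CDX2 and HAND1 outgrowth 1 was far above outgrowth 2. KRT7, a keratin of trophoblast and ducts, fell from 1679 and 2279 to 80.8 and 1.97 (log2 fold change -6.97, SE 1.59, adjusted p = 0.0346). TFAP2A, a factor of trophectoderm and of neural crest, was the member that rose, from 161 and 146 to 514 and 438 (log2 fold change 1.62, SE 0.26, adjusted p = 0.0145).

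Epithelial adhesion and junction genes fell as a group. Of 34 measured members, 29 fell, none rose and 5 did not pass the test (median log2 fold change -6.05, against -0.02 over all genes tested). CDH1, the cadherin of epithelial adherens junctions (chr6:18075487-18155986, Sscrofa11.1), had 9284 and 11344 normalized counts in the outgrowths and 125 and 16.8 in the line (log2 fold change -7.76, SE 0.94, adjusted p = 0.00788). Claudin 4 (CLDN4), a tight junction protein, fell from 4352 and 6356 to 45.4 and 2.96 (log2 fold change -8.60, SE 1.19, adjusted p = 0.0106). The membrane protease ST14 fell from 2763 and 3074 to 46.9 and 0 (log2 fold change -8.72, SE 1.84, adjusted p = 0.029). Both passages were below both outgrowths in these genes, with passage 6 below passage 3.

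Other members of the list were regulators of transcription or splicing. ESRP1, an epithelial splicing factor (chr4:41993944-42061706, Sscrofa11.1), fell from 1929 and 1929 normalized counts to 23.1 and 13.8 (log2 fold change -6.68, SE 0.36, adjusted p = 0.00268). GRHL2, which maintains epithelial gene expression, fell from 1643 and 1691 to 16.2 and 1.97 (log2 fold change -7.87, SE 0.89, adjusted p = 0.00693), and OVOL1 from 639 and 651 to 3.85 and 0 (log2 fold change -8.20, SE 0.85, adjusted p = 0.0061). The junction scaffold TJP1 fell from 10538 and 12504 to 4429 and 4272 (log2 fold change -1.40, SE 0.17, adjusted p = 0.00833). ZEB1, known as a repressor of epithelial genes that binds E-box motifs, rose from 37.4 and 7.65 to 2471 and 2266 (log2 fold change 7.02, SE 0.75, adjusted p = 0.00645). SNAI1, another such repressor, fell from 232 and 213 to 43.9 and 41.4 (log2 fold change -2.36, SE 0.34, adjusted p = 0.0118), and SNAI2, with 244 and 55.7 in the outgrowths and 4.62 and 135 in the line, did not pass the test.

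The promoters of CDH1 and ESRP1 are shown because the E-box letters that such repressors are known to bind lie in both. Each sequence is the 250 bases before the RefSeq gene start in Sscrofa11.1, in the direction of the gene, with the letters CACCTG or their other-strand form CAGGTG in capitals. CDH1 is read from chr6:18155987-18156236 on the minus strand, where matches begin 80 and 29 bases before the start. ESRP1 is read from chr4:42061707-42061956 on the minus strand, with 1 match 12 bases before the start.
CDH1: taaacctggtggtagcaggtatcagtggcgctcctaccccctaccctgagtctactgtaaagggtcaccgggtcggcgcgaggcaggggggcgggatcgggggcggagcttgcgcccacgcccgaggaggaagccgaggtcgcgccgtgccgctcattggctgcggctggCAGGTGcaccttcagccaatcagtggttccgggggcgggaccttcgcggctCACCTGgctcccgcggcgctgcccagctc
ESRP1: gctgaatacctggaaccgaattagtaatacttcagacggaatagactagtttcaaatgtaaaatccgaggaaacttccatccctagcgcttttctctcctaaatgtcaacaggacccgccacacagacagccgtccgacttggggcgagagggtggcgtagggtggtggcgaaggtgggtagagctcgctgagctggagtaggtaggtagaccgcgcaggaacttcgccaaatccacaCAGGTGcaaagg
The 6 letters were found in the 250 bases of 16 of the 34 epithelial genes (47.1%). These were 14 of the 29 that fell and 2 of the 5 that did not pass the test. Of all 19531 promoters, 3819 (19.6%) held them, and 18.1% of the promoters of genes tested. The motif and the list were chosen after values were seen, a match is a description of the letters, and its part in the fall was not tested.

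Of 27 measured mesoderm genes, 16 fell and none rose, against 2 that rose without passage 3 (median log2 fold change -3.10). GSC, a factor of the primitive streak and organizer, had 911 and 562 normalized counts in the outgrowths and 0.769 and 0 in the line (log2 fold change -9.07, SE 0.56, adjusted p = 0.00314). TBXT, the streak factor brachyury, had 174 and 28.4 in the outgrowths and none in the line, at least 38.5-fold lower, and MIXL1 had 92.5 and 77.6 in the outgrowths and none in the line, at least 32.3-fold lower. TBX20, a heart factor, fell from 196 and 235 to 0.769 and 0 (log2 fold change -7.34, SE 0.55, adjusted p = 0.00346). KDR, the VEGF receptor of early blood and vessel precursors, fell from 1295 and 991 to 87.7 and 119 (log2 fold change -3.46, SE 0.29, adjusted p = 0.0043). GSC, TBXT, MIXL1 and TBX20 passed the filter through the outgrowths alone and had to differ. KDR was below both outgrowths at both passages. In TBXT outgrowth 1 exceeded outgrowth 2.

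Ectoderm and neural genes rose. Of 27 measured members, 16 rose, 1 fell and 10 did not pass the test (median log2 fold change 3.48, against -0.02 over all genes tested). STMN2, a microtubule regulator of neurons, rose from 24.6 and 16.4 normalized counts to 16060.2 and 23893 (log2 fold change 9.86, SE 0.32, adjusted p = 0.00196). ELAVL3, a neuronal RNA-binding protein, rose from 4.92 and 0 to 2309 and 559.7 (log2 fold change 8.87, SE 1.14, adjusted p = 0.00898). The neuronal tubulin TUBB3 rose from 1925 and 1797 to 28281 and 15324 (log2 fold change 3.48, SE 0.33, adjusted p = 0.00516), and MAP2, which marks dendrites, from 387 and 161 to 12264 and 11098 (log2 fold change 5.54, SE 0.44, adjusted p = 0.00389). STMN2, TUBB3 and MAP2 were higher at both passages than in either outgrowth. ELAVL3 passed the filter through the line alone and had to differ. TUBB3 and MAP2 were chosen after their values were seen. ELAVL3 and TUBB3 were lower at passage 6 than at passage 3, and STMN2 was higher.

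PAX6, a factor of neural progenitors and eye, rose from 4.92 and 0 normalized counts to 639 and 205 (log2 fold change 7.22, SE 1.08, adjusted p = 0.0125). NES, the intermediate filament nestin, rose from 3389 and 3084 to 18651 and 22134 (log2 fold change 2.65, SE 0.18, adjusted p = 0.00327). FABP7, a fatty acid binding protein of radial glia, rose from 56.1 and 32.8 to 3552 and 11856 (log2 fold change 7.21, SE 0.64, adjusted p = 0.00477), and CRABP1, which binds retinoic acid in hindbrain and neural crest, from 50.2 and 110.4 to 55011 and 6085 (log2 fold change 7.92, SE 1.11, adjusted p = 0.0108). The groups did not overlap in NES, FABP7 and CRABP1, while PAX6 passed the filter through the line alone and had to differ. PAX6, NES and FABP7 were chosen after their values were seen. CRABP1 and PAX6 were higher at passage 3. SOX11, with 596 and 641 in the outgrowths and 1636 and 712 in the line, PAX3, with 47.2 and 0 in the outgrowths and 548 and 258 in the line, and SOX10, with 16.7 and 19.7 in the outgrowths and 15.4 and 3.94 in the line, did not pass the test. The member that fell was OTX2, and 3 fell without passage 3 and 2 without passage 6.

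All 8 genes of the neuron marker list rose, and their summed counts went from 225 and 193 in the outgrowths to 27776 and 28865 in the line. Of the 8, 2 passed the filter through 1 group alone and had to differ. STMN2, ELAVL3 and ELAVL4 are also on the ectoderm and neural list. The 8 markers summed to 210 and 300 in pESCLC-F and to 27718 and 47101 in pESCLC-FL6i. Of these markers, the synaptic vesicle protein SYP rose from 6.89 and 7.65 to 580.1 and 428 (log2 fold change 5.92, SE 0.41, adjusted p = 0.00327), and GAP43, a protein of growing axons, from 43.3 and 33.9 to 1091 and 1659 (log2 fold change 5.10, SE 0.34, adjusted p = 0.00327).

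HOX genes give positional identity along the body axis. Of 26 measured members, 11 rose and 1 fell (median log2 fold change 3.05, against -0.02 over all genes tested). The members that rose were HOXA2, HOXA3, HOXB2 to HOXB7, HOXC4, HOXC5 and HOXD3. HOXB3 had 186 and 32.8 normalized counts in the outgrowths and 2968 and 2087 in the line (log2 fold change 4.97, SE 0.84, adjusted p = 0.0171), HOXB5 had 35.4 and 17.5 in the outgrowths and 789 and 675 in the line (log2 fold change 4.82, SE 0.45, adjusted p = 0.0051), and HOXA2 had 17.7 and 1.09 in the outgrowths and 564 and 309 in the line (log2 fold change 6.06, SE 1.14, adjusted p = 0.0217). These genes of the hindbrain and neck range were higher at both passages than in either outgrowth. The member that fell was HOXA10, a trunk gene, from 162 and 30.6 to 0 and 1.97 (log2 fold change -5.38, SE 1.04, adjusted p = 0.0236). HOXA9, with 471 and 14.2 in the outgrowths and 57.7 and 115 in the line, had overlapping groups and did not pass the test. Outgrowth 1 exceeded outgrowth 2 in all 26, and the count that rose was 3 without passage 3 and 2 without passage 6.

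Imprinted genes are expressed from 1 parental allele. Of 16 measured members, 9 rose and 2 fell, and in 1 fit on all 14 samples 4 rose, without PEG3 (median log2 fold change 1.72). RTL1, a paternally expressed gene of placenta and muscle, had no read in the outgrowths and 144 and 213 normalized counts in the line, at least 57.3-fold higher. PEG3, a paternally expressed zinc finger gene, rose from 478 and 574 to 6964 and 9738 (log2 fold change 3.97, SE 0.23, adjusted p = 0.00303), and SGCE from 137 and 75.4 to 722 and 1454 (log2 fold change 3.32, SE 0.48, adjusted p = 0.0118). PEG10 rose from 2715 and 2127 to 18328 and 14235 (log2 fold change 2.75, SE 0.22, adjusted p = 0.004) and DLK1, a NOTCH-like surface protein, from 164 and 186 to 909 and 1246 (log2 fold change 2.60, SE 0.26, adjusted p = 0.00553). The members that fell were KCNQ1, from 15.7 and 38.3 to 0.769 and 1.97 (log2 fold change -3.48, SE 0.68, adjusted p = 0.0244), and the growth factor adaptor GRB10, from 1765 and 2131 to 896 and 619 (log2 fold change -1.38, SE 0.25, adjusted p = 0.0198).

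BMP4 is part of the FLB2i medium, and the BMP pathway was read by role. Of 6 measured ligands, 3 fell and none rose. BMP2 fell from 4507 and 5504 normalized counts to 6.16 and 21.7 (log2 fold change -8.61, SE 0.60, adjusted p = 0.00327). BMP4 transcripts fell from 1544 and 1649 to 474 and 799 (log2 fold change -1.37, SE 0.29, adjusted p = 0.0299), and GDF6 had 39.3 and 40.4 in the outgrowths and none in the line, at least 15.2-fold lower. BMP7, with 2155 and 1948 in the outgrowths and 40.0 and 668 in the line, did not pass the test. Of 13 receptors, coreceptors and SMADs, 4 rose and 2 fell. SMAD9, a BMP-responsive transducer, rose from 77.7 and 64.5 to 505 and 905 (log2 fold change 3.24, SE 0.39, adjusted p = 0.00771) and the coreceptor RGMA from 282 and 204 to 961 and 999 (log2 fold change 2.02, SE 0.25, adjusted p = 0.00803), while SMAD1 fell from 2221 and 2694 to 612 and 603 (log2 fold change -2.01, SE 0.18, adjusted p = 0.00477).

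Of 21 genes known as BMP targets, 11 fell and 3 rose (median log2 fold change -1.92). The direct targets ID1, ID2 and ID3, inhibitors of differentiation, did not pass the test. ID1 had 3511 and 3775 normalized counts in the outgrowths and 884 and 3296 in the line, ID2 had 2883 and 2326 in the outgrowths and 2557 and 3448 in the line, and ID3 had 5113 and 5011 in the outgrowths and 1818 and 4845 in the line. ID4 rose from 531 and 438 to 1515 and 6005 (log2 fold change 2.64, SE 0.67, adjusted p = 0.0452). SMAD6, the feedback inhibitor of BMP signalling, fell from 1677 and 1241 to 69.2 and 89.7 (log2 fold change -4.18, SE 0.29, adjusted p = 0.00327). Several of the members that fell, such as CDX2, GATA3 and HAND1, are also trophectoderm genes.

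Of 15 measured BMP inhibitors, 6 fell and 3 rose, against 5 that rose without passage 3. Noggin (NOG) fell from 332 and 318 normalized counts to 47.7 and 55.2 (log2 fold change -2.64, SE 0.32, adjusted p = 0.00801) and follistatin (FST), which also binds activin, from 2220.1 and 1865 to 10.0 and 0.985 (log2 fold change -8.77, SE 0.88, adjusted p = 0.00566). CHRDL1, a chordin-like antagonist, rose from 27.5 and 26.2 to 714 and 1923 (log2 fold change 5.39, SE 0.54, adjusted p = 0.00573) and SMOC1, a matrix antagonist, from 69.8 and 19.7 to 1983 and 1306 (log2 fold change 5.39, SE 0.66, adjusted p = 0.00802). The groups did not overlap in these 4 genes.

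FLB2i holds an inhibitor of TGFB, activin and nodal receptors. Of 11 measured ligands, 3 fell and 4 rose. NODAL had 3856 and 4372 normalized counts in the outgrowths and 0 and 2.96 in the line (log2 fold change -11.01, SE 0.74, adjusted p = 0.00327). GDF3, a nodal-related ligand, had 72.8 and 48.1 in the outgrowths and none in the line, at least 23.0-fold lower. TGFB2 rose from 67.9 and 23.0 to 344 and 1654 (log2 fold change 4.22, SE 0.93, adjusted p = 0.0322), and the activin subunit INHBB from 24.6 and 9.84 to 122 and 413 (log2 fold change 3.76, SE 0.79, adjusted p = 0.029). Without passage 6 the count of ligands that rose was 1.

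Of 11 receptors and SMADs, 3 fell and 1 rose, against 5 and 2 without passage 3. FOXH1, the DNA-binding partner of SMAD2 in nodal responses, fell from 821 and 989 normalized counts to 2.31 and 5.91 (log2 fold change -7.56, SE 0.52, adjusted p = 0.00327), and SMAD2 itself from 1529.6 and 1599 to 720.1 and 688 (log2 fold change -1.15, SE 0.16, adjusted p = 0.0109). The shared SMAD4, with 1762 and 1705 in the outgrowths and 1835 and 1526 in the line, lay at adjusted p = 0.846. Of 25 targets, 12 fell and none rose, against 18 and none without passage 6, and 12 and 4 without passage 3. COL1A1, a target that fibroblasts also express in response to TGFB, did not pass the test, and its passages lay far apart.

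FLB2i also holds a GSK3 inhibitor. Of 22 genes known as WNT targets, 2 rose and 7 fell. AXIN2, a feedback inhibitor and general readout of beta-catenin (chr12:12311293-12343207, Sscrofa11.1), rose from 598 and 407 normalized counts to 3007 and 2502 (log2 fold change 2.47, SE 0.25, adjusted p = 0.00596). ZNRF3, a feedback ubiquitin ligase that removes WNT receptors, rose from 619.7 and 399 to 1739 and 2342 (log2 fold change 2.02, SE 0.30, adjusted p = 0.0119). Its relative RNF43 fell from 562 and 527 to 50.8 and 29.6 (log2 fold change -3.78, SE 0.39, adjusted p = 0.0061), and LGR5, an R-spondin receptor with 1730.3 and 1438 in the outgrowths and no read at passage 6, fell as well (log2 fold change -7.79, SE 1.87, adjusted p = 0.0398). LEF1, with 291 and 110.4 in the outgrowths and 76.9 and 107 in the line, SP5, with 231 and 184 in the outgrowths and 108 and 86.7 in the line, and NKD1, with 407 and 103 in the outgrowths and 235 and 175 in the line, did not pass the test. AXIN2 and ZNRF3 were above both outgrowths at both passages, while the members that fell include CDX2 and TBXT, which are also genes of trophectoderm and mesoderm.

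The 250 bases before the RefSeq start of AXIN2, a target that rose, are shown with the letters CTTTGAT, which the TCF and LEF partners of beta-catenin bind, in capitals. They are read from chr12:12343208-12343457 on the minus strand of Sscrofa11.1, and the match begins 16 bases before the start.
AXIN2: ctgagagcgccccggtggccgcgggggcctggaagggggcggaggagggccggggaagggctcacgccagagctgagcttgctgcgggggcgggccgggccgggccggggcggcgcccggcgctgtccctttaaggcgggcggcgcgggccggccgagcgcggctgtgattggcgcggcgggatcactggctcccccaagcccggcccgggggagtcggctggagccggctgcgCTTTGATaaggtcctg
The letters or their other-strand form ATCAAAG were found for 3 of 21 WNT targets (14.3%), which were AXIN2, LEF1 and NKD1. Of these, LEF1 and NKD1 did not pass the test, and none of the 6 that fell held the letters. Of all 19531 promoters, 404 (2.07%) held them, and of genes tested 1.57%. The SMAD letters GGCGCC were found for 4 of 21 BMP targets (19%), among 16.1% of all promoters and 20.6% of genes tested. A match is a description of the letters, and its part in any change was not tested.

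Of 16 measured WNT and R-spondin ligands, 4 rose and 5 fell. WNT1, a ligand of midbrain and dorsal neural tube, rose from 0.984 and 0 normalized counts to 283 and 641 (log2 fold change 8.24, SE 0.67, adjusted p = 0.004). RSPO3 rose from 29.5 and 25.1 to 1633 and 2327 (log2 fold change 6.11, SE 0.31, adjusted p = 0.00262). WNT6 fell from 526 and 553 to 2.31 and 0 (log2 fold change -8.22, SE 0.71, adjusted p = 0.00451) and WNT11, a ligand of gastrulation movements, from 989 and 733 to 13.8 and 26.6 (log2 fold change -5.40, SE 0.45, adjusted p = 0.00417). Of 28 receptors and transducers, 3 rose and 8 fell. The frizzled receptors went in both directions, with FZD5 falling from 7839.8 and 12517 to 49.2 and 21.7 (log2 fold change -8.20, SE 0.47, adjusted p = 0.00303) and FZD10 rising from 194 and 31.7 to 3249.9 and 2022 (log2 fold change 5.01, SE 0.89, adjusted p = 0.019). CTNNB1, beta-catenin itself, stood at 17328 and 17401 in the outgrowths and 14058 and 12719.9 in the line and did not pass the test. Of 14 inhibitors, 4 rose and 3 fell, and 7 rose without passage 3. SFRP4 had no read in the outgrowths and 40.0 and 245 in the line, at least 45.8-fold higher, while SFRP5 had 116 and 94.0 in the outgrowths and none in the line, at least 39.9-fold lower.

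FLB2i supplies LIF, which the F medium of the outgrowths does not. Of 29 measured genes of LIF, JAK and STAT signalling, 6 rose and 6 fell, and 11 rose without passage 3. STAT3 rose from 933 and 925 normalized counts to 2474 and 4284 (log2 fold change 1.81, SE 0.30, adjusted p = 0.0158), STAT2 from 102 and 132 to 509 and 692 (log2 fold change 2.34, SE 0.31, adjusted p = 0.00953) and the kinase JAK1 from 217 and 283 to 872 and 2182 (log2 fold change 2.47, SE 0.48, adjusted p = 0.024). CNTFR, the ciliary neurotrophic factor receptor, rose from 462 and 306 to 2206 and 2041 (log2 fold change 2.49, SE 0.26, adjusted p = 0.00596). The LIF receptor LIFR, with 577 and 379 in the outgrowths and 402 and 653 in the line, and its partner IL6ST, with 2719.8 and 2196 in the outgrowths and 3059 and 5752 in the line, did not pass the test. SOCS3, a STAT3 target and feedback inhibitor, had 471 and 650.4 in the outgrowths and 1047 and 2636 in the line and missed the threshold (adjusted p = 0.0717). SOCS1 fell from 529 and 743 to 17.7 and 29.6 (log2 fold change -4.72, SE 0.42, adjusted p = 0.00485) and the kinase PIM1 from 1331 and 1438 to 261 and 259 (log2 fold change -2.41, SE 0.19, adjusted p = 0.00372).

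FGF2 was in both media, though the paper gives a higher dose for the medium in which blastocysts were plated than for FLB2i. Of 16 measured FGF ligands and receptors, 7 fell and 1 rose, against 2 that rose without either passage. The epiblast ligands FGF8, with 309 and 275 normalized counts in the outgrowths, and FGF17, with 1445 and 920.4, had no read in the line, at least 111-fold and 449-fold lower. FGFR4, a receptor of endoderm and liver, fell from 876 and 1207 to 9.23 and 17.7 (log2 fold change -6.22, SE 0.45, adjusted p = 0.00335). FGF1 rose from 0.984 and 0 to 71.6 and 546 (log2 fold change 7.14, SE 1.10, adjusted p = 0.0136). FGFR1, the main receptor in many progenitors, had 6614 and 6767 in the outgrowths and 3315 and 8987 in the line and did not pass the test.

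Of 20 genes known as targets of FGF and ERK, 2 rose, 2 fell and 16 did not pass the test. Without passage 3, 5 rose and 3 fell, and without passage 6, 2 rose and 4 fell. The feedback phosphatase DUSP6 had 2475 and 1773 normalized counts in the outgrowths and 1483 and 1398 in the line (adjusted p = 0.13). The ETS factor ETV4 had 1681 and 1261 in the outgrowths and 881 and 1307 in the line, and SPRY4, a feedback inhibitor, 494 and 526 in the outgrowths and 445 and 987 in the line. In pESCLC-FL6i, whose medium holds a MEK inhibitor, DUSP6 stood at 151 and 440.1, ETV4 at 5.24 and 23.6 and SPRY4 at 3.15 and 228. ETV4 was thus lower in both pESCLC-FL6i samples than in both passages of the FLB2i line (log2 difference 6.44, SE 0.83, adjusted p = 0.901), without passing limma's test over all genes. DUSP5 was a member that fell, from 650.2 and 703 to 44.6 and 47.3 (log2 fold change -3.85, SE 0.29, adjusted p = 0.00346), and ETV1 rose from 54.1 and 44.8 to 530.1 and 315 (log2 fold change 3.03, SE 0.40, adjusted p = 0.00958).

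Of 19 measured NOTCH genes, 5 rose and none fell, against 2 that fell without either passage. DLL3, a ligand-like inhibitor of NOTCH in neural and somite cells, rose from 0.984 and 1.09 normalized counts to 3211 and 77.8 (log2 fold change 7.95, SE 1.79, adjusted p = 0.0338). DTX1, a NOTCH target and regulator, rose from 1.97 and 0 to 215 and 149 (log2 fold change 6.71, SE 0.71, adjusted p = 0.0064), and DTX4 from 525 and 458 to 3761 and 1467 (log2 fold change 2.26, SE 0.47, adjusted p = 0.0284). HES5, the NOTCH target of neural progenitors, was no member, with 0.984 and 2.19 in the outgrowths and 470.1 and 0.985 in the line, so passage 3 alone was high. Of 20 genes of retinoic acid metabolism and response, 4 rose and 4 fell, and 7 rose without passage 3. The hydroxylases that clear retinoic acid went in both directions. CYP26A1 fell from 8944 and 7012 to 4.62 and 1.97 (log2 fold change -10.92, SE 0.43, adjusted p = 0.00196), and CYP26C1 had 259 and 636 in the outgrowths and none in the line, at least 170.0-fold lower. CYP26B1 rose from 29.5 and 29.5 to 2161 and 4607 (log2 fold change 6.69, SE 0.42, adjusted p = 0.00327).

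Of 20 measured genes of glycolysis, 9 rose and 1 fell (median log2 fold change 0.87). ENO2, the neuronal enolase, rose from 254 and 156 normalized counts to 6721 and 12614 (log2 fold change 5.52, SE 0.40, adjusted p = 0.00333). ENO1 rose from 50907 and 57119 to 297047 and 213971 (log2 fold change 2.23, SE 0.36, adjusted p = 0.0157) and PDK1, which keeps pyruvate from mitochondria, from 3014 and 2349 to 11471 and 8127 (log2 fold change 1.86, SE 0.25, adjusted p = 0.00989). LDHB fell from 2022 and 1985 to 1297 and 1337 (log2 fold change -0.60, SE 0.15, adjusted p = 0.0428). None of the 13 mRNAs of the mitochondrial genome passed limma's test, while 3 rose without passage 3. Of 25 genes of lipid transport and cholesterol, 9 fell and 4 rose. The fallers included the apolipoproteins APOA1, APOE and APOC3, and the genes that rose were the fatty acid binding protein FABP5, from 381 and 284 to 2653 and 4908 (log2 fold change 3.45, SE 0.36, adjusted p = 0.00606), the sterol enzymes HMGCS1 and SQLE and the desaturase SCD.

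Most proliferation genes did not pass the test. Of 20 measured members, 2 rose and 2 fell, without passage 3 none rose and 6 fell, and in 1 fit on all 14 samples none passed. The topoisomerase TOP2A had 13864 and 12001 normalized counts in the outgrowths and 19664 and 10514 in the line, and CDK1 had 1752 and 1513 in the outgrowths and 1950.4 and 1668 in the line. Of 15 cell cycle inhibitors and p53 targets, 4 rose and 1 fell, against 4 that fell without passage 3 and 3 without passage 6. CDKN2C, an inhibitor of CDK4 and CDK6, rose from 5.9 and 2.19 to 436 and 324 (log2 fold change 6.33, SE 0.57, adjusted p = 0.00477), and GADD45G, a stress response gene, from 35.4 and 18.6 to 880.2 and 218 (log2 fold change 4.04, SE 0.79, adjusted p = 0.0239). Of 13 DNA methylation genes none passed limma's test, although 2 fell without passage 3 and 2 rose without passage 6.

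**Figure D3:**
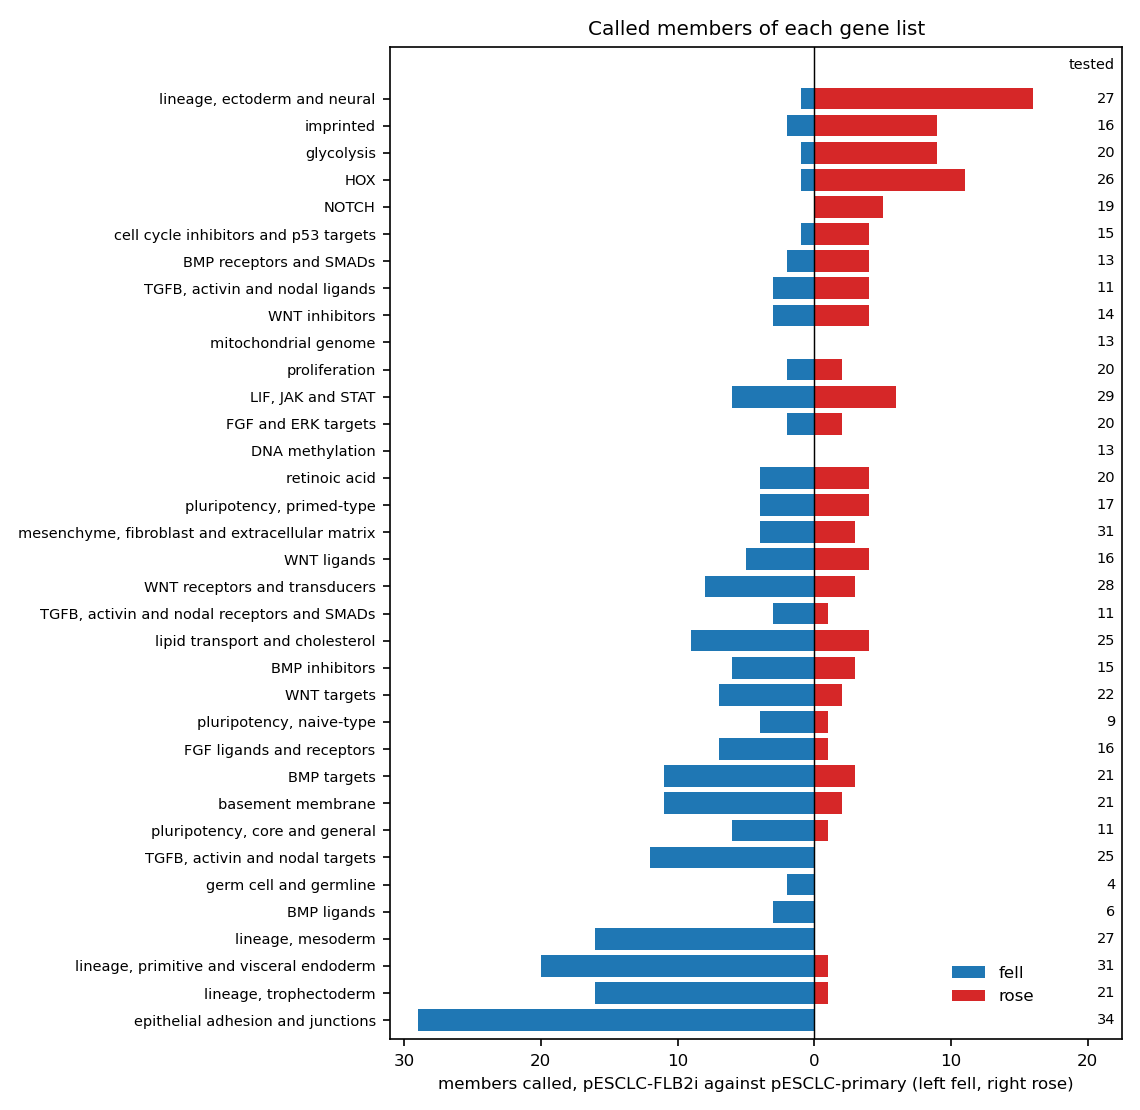
Number of members of each gene list that fell (blue, left) or rose (red, right) in pESCLC-FLB2i against pESCLC-primary, with the number tested at the right edge. Epithelial, endoderm, trophectoderm and mesoderm lists extend to the left, and the neural and HOX lists to the right.

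The passages of the FLB2i line differed from each other more than the outgrowths did. At least 4-fold differences between passages 3 and 6 were found in 979 members (6.67%), 611 higher and 368 lower at passage 6. Between the outgrowths there were 320 (2.18%), and the median absolute log2 difference was 0.41 between passages and 0.24 between outgrowths. With 1 sample of each passage this difference has no replicate check. Of 31 mesenchyme and extracellular matrix genes, 17 were at least 4-fold higher at passage 6 and none lower. COL1A1, the main fibrillar collagen, had 239 normalized counts at passage 3 and 6951 at passage 6, beside 2053 and 1318 in the outgrowths. Periostin (POSTN) had 24.6 and 1692 and the mesenchymal cadherin CDH11 had 1463 and 10460.5. Of 34 epithelial genes, 16 were at least 4-fold lower at passage 6, CDH1, EPCAM and CLDN4 among them, and 2 were at least 4-fold higher.

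Against the outgrowths, 3 of the 31 mesenchyme genes rose and 4 fell, without passage 3 the counts were 15 and 4, and without passage 6 they were 4 and 10. VIM, ZEB1 and the collagen cross-linking enzyme LOX rose, LOX from 89.5 and 39.3 normalized counts to 1879 and 3002 (log2 fold change 5.30, SE 0.49, adjusted p = 0.00498). Fibronectin (FN1) fell from 300932 and 380116 to 4414 and 26183 (log2 fold change -4.98, SE 0.88, adjusted p = 0.0189) and decorin (DCN) from 309.9 and 279.8 to 6.92 and 10.8 (log2 fold change -4.93, SE 0.44, adjusted p = 0.00476). The 9 matched fibroblast markers summed to 18969 and 11897 normalized counts in the outgrowths, 2053 at passage 3 and 43280 at passage 6, and to 911 and 292455 in pESCLC-FL6i. Of these markers 1 fell and none rose. Reads of mouse feeder cells can enter these sums where they match pig genes, and their part in the difference between the passages was not tested.

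**Figure D4:**
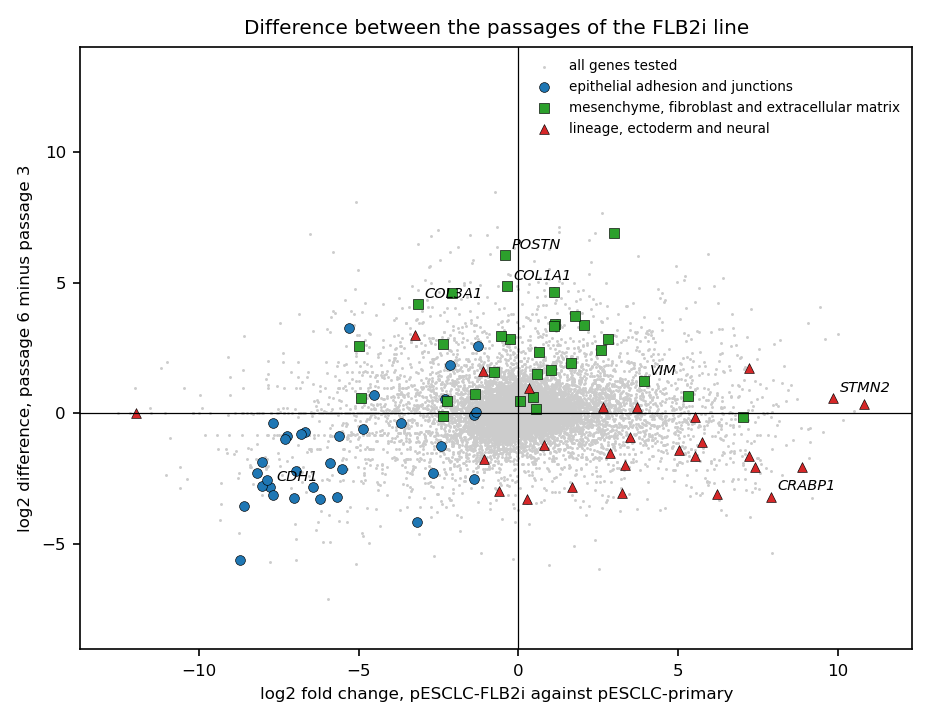
Log2 fold change of pESCLC-FLB2i against pESCLC-primary (x axis) and log2 difference of passage 6 minus passage 3 (y axis) for all genes tested (grey) and 3 gene lists. Epithelial genes lie mostly at the lower left, mesenchyme genes such as COL1A1 high in the middle, and neural genes mostly at the right, many of them lower at passage 6.

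Genes of the X chromosome were higher in the line than in the outgrowths as a group. The 388 X-linked members had a median log2 fold change of 0.38, while the medians of the autosomes lay between -0.17 (chromosome 12) and 0.11 (chromosome 8). Of the X-linked members, 108 (27.8%) rose and 30 (7.73%) fell, against 15% and 14.4% of 11022 autosomal members. The X median was 0.43 for passage 3 against outgrowth 1 and 0.26 against outgrowth 2, and 0.49 and 0.37 for passage 6. Between the outgrowths it was 0.13, and between the passages 0.06. With the X-linked members split by position into 4 parts of 97 genes, the medians were 0.12, 0.33, 0.68 and 0.50 in order. Against pESCLC-F lines A1 and A2, the X median was 0.15 and 0.12 for passage 3, and 0.21 and 0.28 for passage 6. The highest autosome medians there were 0.17 and 0.12 for passage 3, and 0.12 and 0.11 for passage 6. Of the Y-linked genes, EIF1AY had 269.5 and 8.74 normalized counts in the outgrowths and 10.0 and 12.8 in the line, and KDM5D had 68.9 and 1.09 in the outgrowths and 0.769 and 0.985 in the line. Among the outgrowths and the line, the Y-linked genes were thus high in outgrowth 1 alone, and the X median was the higher against that outgrowth. In pESCLC-FL6i, EIF1AY and KDM5D summed to 7.34 normalized counts in the first sample and 113 in the second. The part of sex was not tested.

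**Figure D5:**
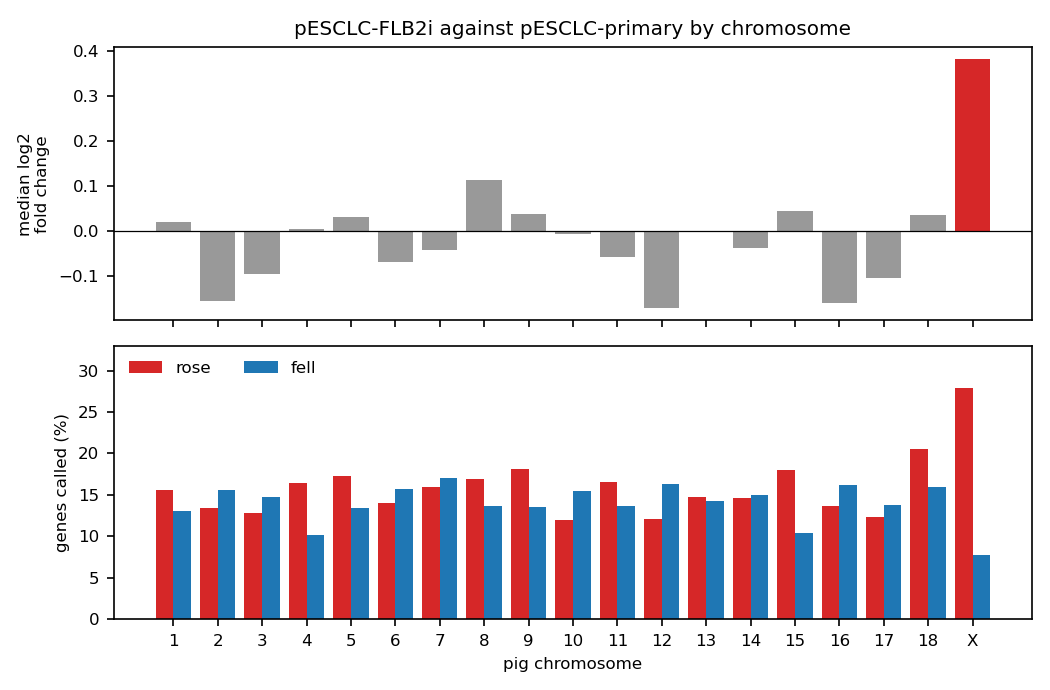
Median log2 fold change of pESCLC-FLB2i against pESCLC-primary over the members of each pig chromosome (top) and percent of members that rose or fell (bottom). The X chromosome, in red at the top, has a median of 0.38 and 27.8% of its members rose.

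The pESCLC-F lines share the medium of the outgrowths and do not share samples with them, though they share the pESCLC-FLB2i samples with the comparison above. Of 14576 genes tested, 4940 (33.9%) passed the test, 2587 (17.7%) higher and 2353 (16.1%) lower in the FLB2i line. DEGs made up 8.91% higher and 5.84% lower. Without line A1 the test called 371 and without line A2 it called 284. DESeq2 called 5628 and edgeR 4499. HNF4A, with 15090.0 and 13369 normalized counts in pESCLC-F, was far lower in the FLB2i line (log2 fold change -12.34, SE 0.29, adjusted p = 0.00124), and so were EOMES, with 7398 and 6197 (log2 fold change -12.23, SE 0.48, adjusted p = 0.00135), OTX2, with 6664 and 4904 (log2 fold change -12.48, SE 0.39, adjusted p = 0.00124), and NODAL, with 9532 and 4677 (log2 fold change -11.71, SE 0.79, adjusted p = 0.00184). TF, the iron carrier transferrin of visceral endoderm and liver, had 3695 and 4995 in pESCLC-F, 340.3 and 298 in the outgrowths and 0 and 0.985 in the FLB2i line (log2 fold change -11.57, SE 0.50, adjusted p = 0.00141). ZIC1 had 1.05 and 3.03 in pESCLC-F and was higher in the FLB2i line (log2 fold change 11.74, SE 0.45, adjusted p = 0.00135). AXIN2 stood at 53.4 and 111 in pESCLC-F, below both outgrowths and both passages of the FLB2i line.

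Against pESCLC-FL6i, no gene of 14495 (0%) passed limma's test, and the lowest adjusted p was 0.901. The FLB2i line came from cells kept in FL6i medium, but the pESCLC-FL6i samples carry another line name. At an unadjusted p under 0.05 there were 664 genes. DESeq2 on the recovered reads called 164 genes, 41 of them higher in the FLB2i line, and edgeR called none. Without either pESCLC-FL6i sample limma still called none. Both lines held high neural and low epithelial counts, with STMN2 at 12620.5 and 17587 normalized counts in pESCLC-FL6i, PAX6 at 1666 and 561, CDH1 at 18.9 and 83.8 and NANOG at 15.7 and 7.86. RSPO3 had 312 and 244 there and 1633 and 2327 in the FLB2i line (log2 difference 2.82, SE 0.35), and CYP26B1 had 71.3 and 262 and 2161 and 4607 (log2 difference 4.52, SE 0.77). HOXA10 had 358 and 286 there, above both passages of the FLB2i line with 0 and 1.97. The lines did not overlap in these 3 genes, which were picked for this comparison after their values were seen. None of the 3 passed the test, and their separation is a description. A p that misses the threshold does not show that the lines are alike.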

How the data were processed

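RNA was sequenced by the authors from stranded TruSeq mRNA libraries as paired 50-base reads, aligned to Sscrofa11.1 with TopHat2 2.1.0 and counted per gene with HTSeq at its defaults. The annotation release and the DESeq2 version are not given in the sources used here. The deposited values are a signal, read counts divided by 1 DESeq2 size factor per sample. Values are whole multiples of 1 read's worth within a tolerance of 0.001, which recovered reads and depth for the samples compared. Antisense and overlapping genes are uncertain, since the strand setting was not stated further.

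Members and gene lists were chosen with earlier results of these data known. Tests used limma 3.58.1 in R 4.3.3, with an intensity trend, on log2(value + 1) over members, and Benjamini-Hochberg adjustment. The cutoff was 0.05, and DEGs also had at least 3 log2 units. EdgeR 4.0.16 and DESeq2 1.42.0 on recovered reads were alternatives, beside other pseudocounts (0.1 and 5), filters, scaling, a replicate block and leaving out each sample. Scripts were tested on simulated data. Symbols were matched by Ensembl ID for 14151 of 19588 genes, and positions by symbol to RefSeq on Sscrofa11.1. Floors and counting intervals cover counting error only.

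Named genes were, in each list, up to 3 called members higher and 3 lower with the largest change and the epiblast, primitive endoderm and trophectoderm markers, then 12 DEGs in each direction and 6 called list genes for each other comparison. Some items under these rules are not reported here. Chosen after their values were seen were ALPL, BMP7, CDH11, CDK1, COL1A1, CTNNB1, DLK1, DNMT3B, DUSP6, EIF1AY, ESRP1, ESRRB, ETV4, FABP7, FGFR1, GAP43, GRHL2, HES5, HOXA3, HOXA5, HOXA9, HOXB2, HOXB4, HOXB6, HOXB7, HOXC4, HOXC5, HOXD3, ID1, ID2, ID3, IL6ST, KDM5D, KDR, KIT, KLF4, KLF5, LEF1, LIFR, MAP2, MIXL1, MYC, MYCN, NES, NKD1, NOG, PAX3, PAX6, PEG10, POSTN, RNF43, SMAD4, SMAD6, SNAI2, SOCS3, SOX10, SOX11, SP5, SPRY4, SQLE, SYP, TBXT, TJP1, TOP2A, TRIM71, TUBB3, WIF1, WNT5A, WNT7B and ZIC2.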

Additional observations from a re-analysis of the deposited data

How the results depend on the processing

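Leaving out 1 sample at a time, the calls against pESCLC-primary ranged from 113 to 4962, the DEGs from 113 to 1814, the calls against pESCLC-F from 284 to 4554 and those against pESCLC-FL6i from 0 to 0. Such a fit assumes that a lone sample varies like the other group. Of the called genes, 52.8% were higher in the FLB2i line, 46.8% without passage 3, 46.9% without passage 6, 23.2% without outgrowth 1 and 16.8% without outgrowth 2. Other pseudocounts, filters, size factors and tools, and 1 fit on all 14 samples, left the calls against pESCLC-primary between 3733 and 5143. The DEGs numbered 2869 with a 3-fold change in place of 3 log2 units. Against pESCLC-FL6i, DESeq2 called 164 genes and 1 fit on all 14 samples 68. The samples share only a replicate number. Deviations of same-numbered samples correlated at -0.02 over 14682 genes, and with the replicate number as a block the calls were 3629 (1709 DEGs) against pESCLC-primary, 0 against pESCLC-FL6i and 4614 against pESCLC-F. Of 155 named genes called, none reversed in any setting and 21 lost the call in a setting that kept all 4 samples. Without outgrowth 1, 23 kept it and without outgrowth 2, 20. Genes at a few reads in 1 group have fitted fold changes that depend on the pseudocount.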

Other observations

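Basement membrane genes, which primitive endoderm secretes in quantity, moved mostly down. Of 21 measured members, 11 fell and 2 rose in the FLB2i line, and 1 rose without passage 6. The laminin chains went in both directions. LAMB1 fell from 13573 and 16031 normalized counts to 193 and 469 (log2 fold change -5.61, SE 0.45, adjusted p = 0.00389). LAMB2, a chain of nerve and muscle basement membranes, rose from 1130.2 and 1432 to 3589 and 10489 (log2 fold change 2.27, SE 0.53, adjusted p = 0.0378). Collagen prolyl hydroxylase P3H2 fell from 6017 and 5992 to 9.23 and 111 (log2 fold change -7.47, SE 1.14, adjusted p = 0.0132). Of 4 measured germ cell genes, 2 fell, which were TFAP2C and PRDM1. The filter was passed through 1 group alone by 2 of the 4, TFAP2C among them. PRDM1 fell from 2434 and 2709.7 to 92.3 and 118 (log2 fold change -4.61, SE 0.23, adjusted p = 0.00259). KIT, a receptor of germ and neural crest cells, had 3261 and 2584 in the outgrowths and 2184 and 4533 in the line and did not pass the test.

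Outgrowth 1 had the higher level in HOXA9 (471 normalized counts against 14.2), HOXA5 (378 against 21.9), CDX2 (388 against 26.2), HAND1 (307 against 41.5) and TBXT (174 against 28.4). Of the 320 members at least 4-fold apart between the outgrowths, 236 were lower in outgrowth 2. With 1 sample each, these differences have no replicate check. Between passages 3 and 6 of the line, the ligands WNT7B (1141 against 39.4) and DLL3 (3211 against 77.8) were higher at passage 3, and WNT5A (43.1 against 6125) and WIF1 (85.4 against 3122) at passage 6.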
